A study of Rattus norvegicus with 18 samples.

Results

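The glutathione S-transferases (GST), microsomal glutathione S-transferases (MGST), UDP-glucuronosyltransferases (UGT) and sulfotransferases (SULT) are the main families of conjugating enzymes, and their transcripts were followed in rat kidney. They were taken by gene name, as names that begin with Gst and a class letter (a, k, m, o, p, t or z), Mgst, Ugt or Sult and then a number. The rule found 49 rows among the 32116 genes of the table: 21 GST, 3 MGST, 12 UGT and 13 SULT rows, with 46 distinct names because Ugt2b, Ugt2b10 and Sult2a2 each stand on 2 rows. RNA was sequenced from kidneys of rats in 3 groups of 6 libraries. The SZ group was given 300 mg/kg of SZ-A daily together with adenine, the CKD group adenine alone, both with a daily adenine dose of 100 mg/kg, and the NC group was untreated. Adenine overload is a rodent model of tubular injury and chronic kidney disease. What SZ-A is, the strain, the age and the duration are not stated in the labels, and the labels do not say that libraries come from separate animals. The p-values therefore measure the spread between libraries, which may be technical. The questions are how the conjugating enzymes of the kidney differ under adenine, and how they differ when SZ-A is given with it.

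Conjugation makes reactive or fat-soluble molecules water-soluble so that they can leave the cell. GSTs join glutathione to electrophiles, UGTs join glucuronic acid from UDP-glucuronate, and SULTs join sulfate from the donor PAPS. In the kidney many of these enzymes, though not all, sit in the proximal tubule, whose brush border also trims glutathione conjugates on their way to mercapturates in urine. MGSTs belong to another protein superfamily, are built into membranes, and include enzymes that make leukotriene C4 or reduce lipid peroxides.

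Depth was even, at 15354358 to 18532375 reads per library, recovered from the steps in the deposited FPKM values. FPKM is fragments per kilobase of gene, scaled for depth, and it allows levels of different genes to be compared per length. The libraries were not alike in how values ran with gene length. In CKD 2, CKD 5 and SZ 3 values fell with gene length, by 0.211, 0.312 and 0.248 on the log2 scale per doubling. The other libraries had slopes between -0.10 and 0.11. What these slopes reflect was not tested. The proximal tubule was present in every library by its 14 markers, while the summed level of 4 urothelial markers was at most 0.457 FPKM in any library. In whole tissue, fewer cells of a type and less RNA per cell cannot be told apart.

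Start regions of some members are shown first, because Gsta3, which fell in CKD against NC, Gstm3, which rose, and Gstp1, which did not pass the test, hold the antioxidant response element core, the letters to which NRF2 binds, and because Sult1c2 had one of the deepest falls. They come from RefSeq, build GRCr8, as the 250 bases before an annotated start, read 5′ to 3′ on the gene's strand, and 36 of the 49 members could be matched. For Gsta3, the Gstm3 row and Sult1c2 this window lies outside the gene's annotated span. For Gstp1, Gstz1, Gsta1 and Ugt2b35, among others, it overlaps that span, so it is not wholly before the outermost start of the gene. Capitals mark TGACNNNGC (the antioxidant response element core) or TATAAA, on either strand. Gsta3 is at chr9:31154739-31154988 on the plus strand, the row named Gstm3 (RefSeq Gstm5) at chr2:198219519-198219768 on the plus strand, and Sult1c2 at chr9:7436731-7436980 on the plus strand. For Gstp1 only the 30 bases from -71 to -42 are given, at chr1:210769747-210769776 on the minus strand.
Gsta3: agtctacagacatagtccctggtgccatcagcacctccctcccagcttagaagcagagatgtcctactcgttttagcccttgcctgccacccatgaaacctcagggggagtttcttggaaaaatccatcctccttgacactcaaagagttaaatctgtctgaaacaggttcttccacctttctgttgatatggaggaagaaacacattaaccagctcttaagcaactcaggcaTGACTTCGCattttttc
Gstm3: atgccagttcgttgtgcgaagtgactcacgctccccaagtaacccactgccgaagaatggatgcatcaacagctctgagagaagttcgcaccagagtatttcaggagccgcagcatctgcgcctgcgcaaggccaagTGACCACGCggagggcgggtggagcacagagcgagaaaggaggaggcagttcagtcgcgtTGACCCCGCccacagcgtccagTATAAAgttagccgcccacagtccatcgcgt
Sult1c2: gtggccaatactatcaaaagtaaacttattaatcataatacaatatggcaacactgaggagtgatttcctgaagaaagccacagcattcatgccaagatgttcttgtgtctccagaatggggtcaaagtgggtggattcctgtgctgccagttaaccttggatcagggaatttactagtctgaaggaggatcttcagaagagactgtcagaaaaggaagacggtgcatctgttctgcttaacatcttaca
Gstp1: tccactgtgtTGACTCAGCatccggggcgg
The core began at -17 in Gsta3, at -113 and -53 in the Gstm3 row, at -61 in Gstp1 and at -231 in Gstz1. These are 4 of the 27 tested members with a start region (14.8%), against 10.2% of all 27457 rat start regions of the same length. GCGTG, the core bound by the aryl hydrocarbon receptor, was in 9 of the 27 (33.3%) and in 27.2% of all, and TATAAA in 5 of the 27 (18.5%) and in 13.1% of all. Some copies also share start sequence: a run of 25 bases is common to Ugt2b35, Ugt2b7 and Ugt2b15, which lie in 1 cluster, and a run of 20 bases to Gsta1 and Gsta3, against a median longest run of 8 bases over 351 pairs of tested members.
Ugt2b run: TGAGCAATGCAAGTTATATTTTAAC
Gsta run: TTTAGCCCTTGCCTGCCACC
These runs are shown because neighbouring copies may also share reads in their transcripts, so values of single alpha and mu class GSTs, Ugt2b and Sult1c genes are uncertain where copies are near-identical. A motif match is a description of letters, not of binding.

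In the table of levels, 32 of the 49 rows reached 1 FPKM in at least 6 of the 18 libraries and were tested: 19 of 21 GST, 3 of 3 MGST, 4 of 12 UGT and 6 of 13 SULT rows. In 28 of them every library reached 1 FPKM. Mgst2 reached it in 3 SZ, 6 CKD and 0 NC libraries and Sult1c3 in 0 SZ, 1 CKD and 6 NC libraries, so these rows were tested only through the group in which they are high. A difference from that group was then built into their choice, and their calls against it are given as a description. A mean above 1 FPKM was found for 30 members in SZ, 31 in CKD and 32 in NC kidneys. Of these, 30 were above 1 FPKM in all 3 groups, 16 members were above it in none, and 3 crossed it between groups, which were Mgst2, Sult1c3 and Sult5a1. Among the 17 rows not tested, 6 were listed at 0 in all libraries: Gstt4, Sult1e1, both Sult2a2 rows, Ugt2a1 and Ugt3a2. The others were low, with 1 library reaching 3.67 FPKM (Sult5a1 in NC 2). Sult5a1 averaged 0.592 FPKM in SZ, 0.606 FPKM in CKD and 1.63 FPKM in NC kidneys, and Gstm3l, a mu class copy, averaged 0.559 FPKM in SZ, 0.360 FPKM in CKD and 0.556 FPKM in NC kidneys. The UGT2 and SULT families thus held many rows near 0, and most of each sum lay in 1 gene.

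Per length, the most abundant member was Sult1c2a, a cytosolic sulfotransferase of the 1C class, which gave 91.0% of the summed SULT FPKM in SZ, 87.1% in CKD and 89.2% in NC kidneys. Ugt2b35 gave 98.1% of the UGT2 sum in SZ, 98.8% in CKD and 97.8% in NC kidneys. The GST sum was more evenly made up: its largest member gave 26.3% in SZ, 21.6% in CKD and 25.1% in NC kidneys. The summed GST level was 1110 to 2073 FPKM in SZ, 572 to 1933 FPKM in CKD and 1803 to 2371 FPKM in NC kidneys. The summed SULT level had a median of 1053 FPKM in SZ, 513 FPKM in CKD and 1398 FPKM in NC kidneys. For UGT1 the medians were 49.9 FPKM in SZ, 29.3 FPKM in CKD and 81.7 FPKM in NC kidneys, and for UGT2 they were 206 FPKM in SZ, 111 FPKM in CKD and 324 FPKM in NC kidneys. All 4 sums had their lowest median in CKD and their highest in NC kidneys, and in each the SZ and CKD ranges overlapped. The MGST sum was 238 to 364 FPKM in SZ, 171 to 368 FPKM in CKD and 376 to 423 FPKM in NC kidneys, so that both adenine groups lay below NC, a separation that was lost when FPKM sums were set equal (TPM) or plain read totals were used.

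**Figure D1:**
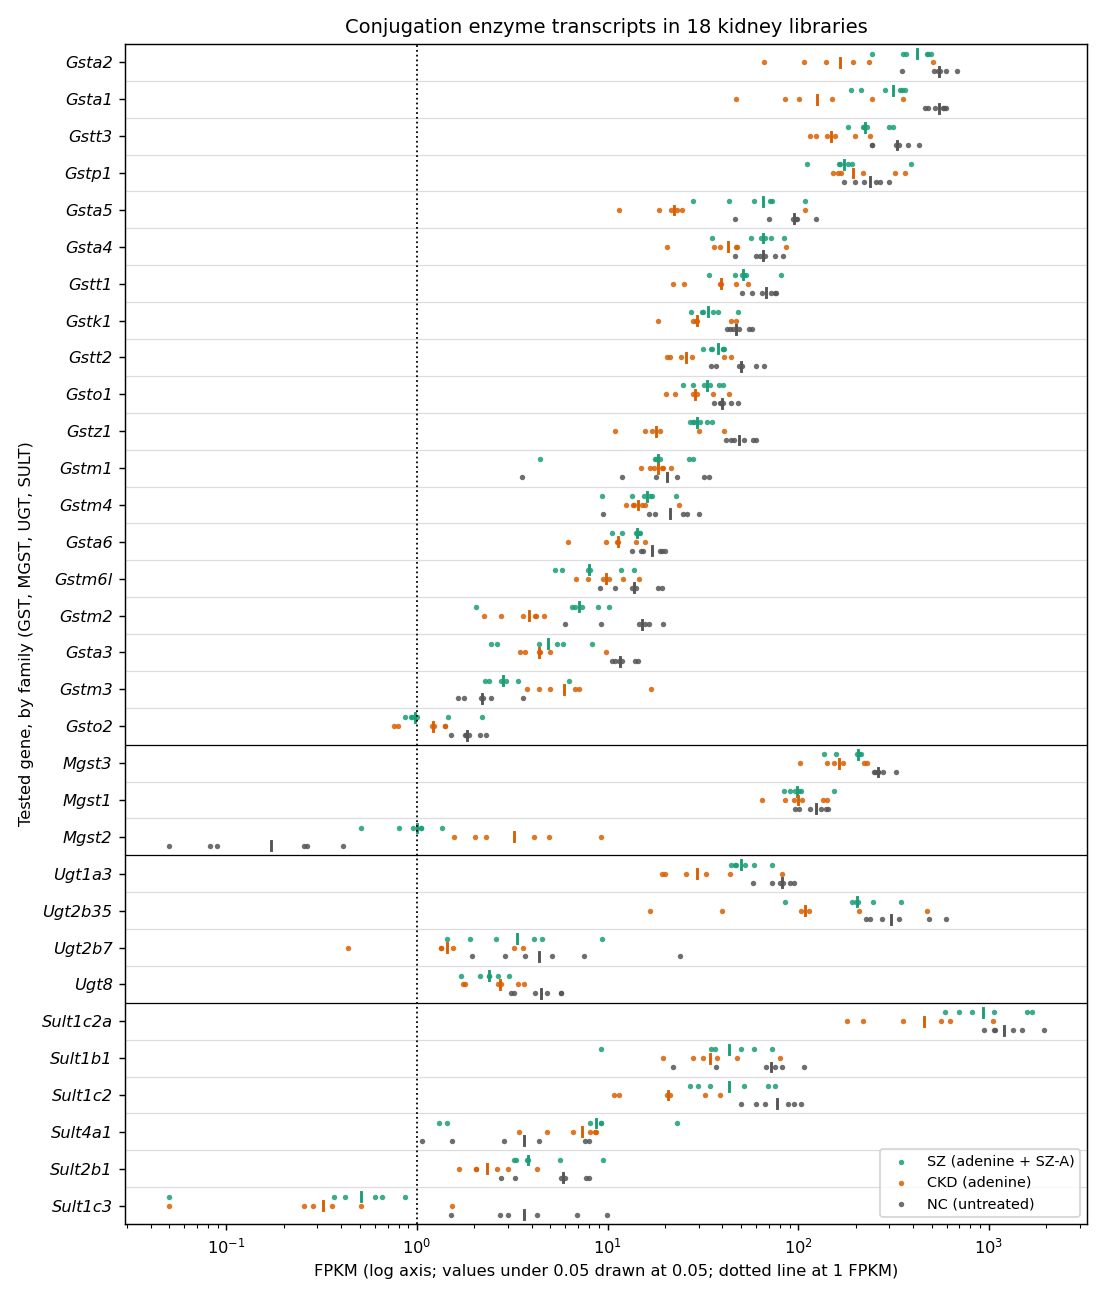
FPKM of the 32 tested members in each library on a log axis, with SZ, CKD and NC points in rows under each other and a vertical tick at each group's median; the dotted line is 1 FPKM. Sult1c2a, Gsta2 and Gsta1 are highest, Mgst2 and Sult1c3 cross 1 FPKM between groups, and most CKD medians lie left of the NC medians.

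**Figure D2:**
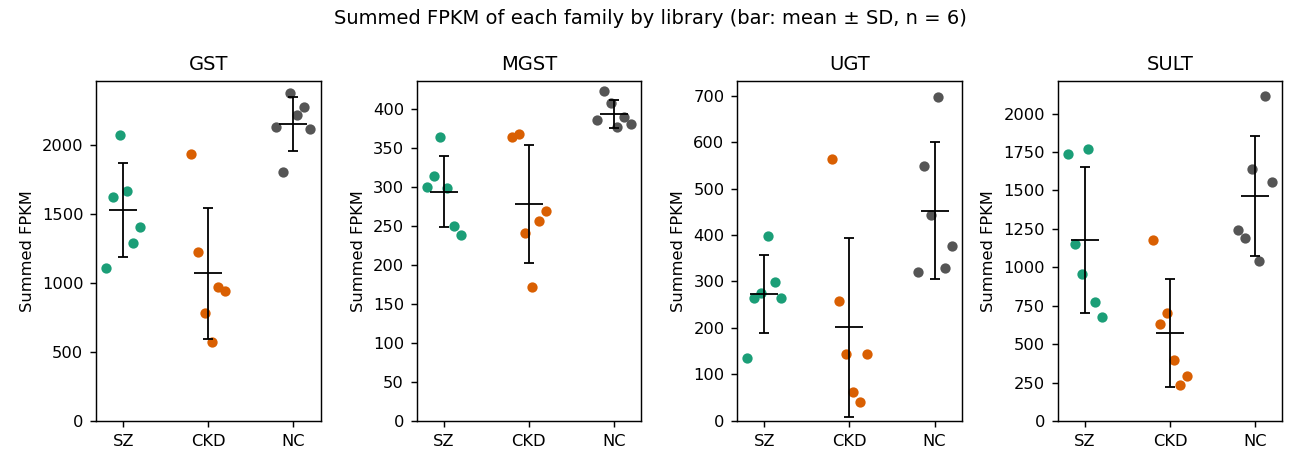
Summed FPKM of the GST, MGST, UGT and SULT rows in each library (linear axes from 0), with mean and SD of 6 libraries per group; the UGT panel joins UGT1, UGT2 and the other UGT rows. One CKD library, CKD 1, is among the NC libraries in the GST, UGT and SULT panels.

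CKD against NC sets kidneys of adenine rats against untreated ones. As deposited, most conjugating enzyme transcripts tested were lower in adenine kidneys: of the 32 tested members 22 fell, 2 rose and 8 did not pass the test. The falls numbered 12 under TPM scaling and 15 under plain read totals. Sult1c3 among the falls and Mgst2 among the rises were tested only through the higher group. The largest falls were in the alpha class GSTs Gsta1, Gsta5 and Gsta2, in the 1C sulfotransferases and in Ugt2b35, and the rises were in Mgst2 and the mu class row Gstm3. Tests are limma on log2(FPKM + 1) over 13851 genes with Benjamini-Hochberg adjustment, with calls made below 0.05 after adjustment. Many genes differed in this comparison: 50.3% of all genes tested were called, 24.4% higher and 26.0% lower, against 75% of the members, 6.25% higher and 68.8% lower. The median log2 fold change was -0.73 over the members and -0.04 over all genes. Ranges of the groups did not overlap for 10 members, and for 26.5% of all genes.

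Among the cytosolic GSTs 13 of 19 fell and 1 rose in CKD kidneys. Gsta1, an alpha class enzyme that conjugates electrophiles and reduces lipid hydroperoxides, had a lowest, median and highest value of 47.0, 126 and 355 FPKM in CKD against 464, 547 and 594 FPKM in NC kidneys. Every CKD library was below every NC library (log2 fold change -2.0, SE 0.347, limma adjusted p = 0.000121). Gsta2, a second abundant alpha class enzyme, had 66.4, 166 and 506 FPKM in CKD against 350, 548 and 680 FPKM in NC kidneys. Here the groups overlapped through CKD 1, the highest CKD library, and the log2 fold change was still below 0 (-1.65, SE 0.345, limma adjusted p = 0.000677). Gsta5 had 11.5, 22.3 and 109 FPKM in CKD against 46.6, 95.4 and 123 FPKM in NC kidneys, again with CKD 1 among the NC values (log2 fold change -1.67, SE 0.407, limma adjusted p = 0.00226). Gsta3, at 3.48, 4.39 and 9.78 FPKM in CKD against 10.6, 11.7 and 14.4 FPKM in NC kidneys, fell by 1.17 on the log2 scale with no overlap (SE 0.229, limma adjusted p = 0.000367). Gsta6 fell less, by 0.57, and Gsta4, which clears the lipid peroxidation product 4-hydroxynonenal, missed the threshold (log2 fold change -0.61, SE 0.256, limma adjusted p = 0.0548).

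The theta class lies in 1 cluster on chromosome 20, and its 3 tested genes fell together. Gstt3 had 116, 148 and 238 FPKM in CKD against 244, 331 and 429 FPKM in NC kidneys, with no overlap (log2 fold change -1.02, SE 0.192, limma adjusted p = 0.000265). Gstt1 and Gstt2 fell by 0.84 and 0.75 on the log2 scale (limma adjusted p = 0.00288 and 0.00308), and the fourth gene of the cluster, Gstt4, was listed at 0. Single-gene classes fell as well. Gstz1, the maleylacetoacetate isomerase of tyrosine breakdown, had 10.9, 17.98 and 40.5 FPKM in CKD against 41.9, 49.1 and 59.8 FPKM in NC kidneys, with no overlap (log2 fold change -1.26, SE 0.217, limma adjusted p = 0.000115). Gstk1, the kappa class enzyme of mitochondria and peroxisomes, fell by 0.62, and the omega class genes Gsto1 and Gsto2, which reduce dehydroascorbate, fell by 0.49 and 0.45 on the log2 scale. Gstk1, Gsto1, Gsto2 and Gsta6 lost their calls under TPM scaling and plain read totals, and Gstt1 and Gstt2 under TPM scaling, with the sign as before. Gstp1, the pi class enzyme, did not pass the test: it had 153, 193 and 362 FPKM in CKD against 174, 239 and 300 FPKM in NC kidneys (log2 fold change -0.10, SE 0.264, limma adjusted p = 0.776), and its sign turned under TPM scaling and plain read totals.

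The mu class was split. Gstm2 fell, with 2.23, 3.88 and 4.65 FPKM in CKD against 5.99, 15.1 and 19.6 FPKM in NC kidneys and no overlap (log2 fold change -1.60, SE 0.287, limma adjusted p = 0.000165). The row named Gstm3, which the table describes as the mu 5 enzyme, rose: it had 3.78, 5.87 and 16.9 FPKM in CKD against 1.63, 2.19 and 3.58 FPKM in NC kidneys, with no overlap (log2 fold change 1.20, SE 0.262, limma adjusted p = 0.000965). Gstm1, Gstm4 and Gstm6l did not pass the test, with log2 fold changes of 0.11, -0.33 and -0.44. The mean FPKM of Gstm1 ran the other way, at 18.2 in CKD and 20.4 in NC kidneys. Gstm4 changed sign under TPM scaling.

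Of the membrane enzymes Mgst3, which has glutathione peroxidase activity, fell: it had 102, 163 and 228 FPKM in CKD against 250, 262 and 326 FPKM in NC kidneys, with no overlap (log2 fold change -0.72, SE 0.173, limma adjusted p = 0.00202), and it lost the call under TPM scaling. Mgst2, which can make leukotriene C4, rose instead, to 1.56, 3.21 and 9.27 FPKM in CKD against 0, 0.172 and 0.408 FPKM in NC kidneys. Every CKD library was above every NC library, and the log2 fold change was 1.93 (SE 0.251, limma adjusted p = 6.14e-06), in a row tested only because CKD is high; on the log2(FPKM + 1) scale the changes of such low genes are understated. Mgst1, of the endoplasmic reticulum and outer mitochondrial membrane, had 64.3, 99.5 and 141 FPKM in CKD against 96.6, 124 and 144 FPKM in NC kidneys and did not pass the test (log2 fold change -0.25, SE 0.183, limma adjusted p = 0.262), and its sign turned under TPM scaling and plain read totals.

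All 4 tested UGT rows fell in CKD kidneys. Ugt2b35, of the subfamily that conjugates steroids and bile acids, had 16.6, 109 and 475 FPKM in CKD against 227, 307 and 594 FPKM in NC kidneys. The CKD libraries were spread widely, CKD 1 lay inside the NC range, and the log2 fold change was -1.79 (SE 0.572, limma adjusted p = 0.0142). Its neighbour Ugt2b7 had 0.432, 1.44 and 3.61 FPKM in CKD against 1.94, 4.37 and 24.1 FPKM in NC kidneys (log2 fold change -1.25, SE 0.445, limma adjusted p = 0.0257). This call was lost under TPM scaling, plain read totals and the rank sum test, without NC 3, NC 6 or CKD 4, and without CKD 2, CKD 5 and SZ 3 together, where the adjusted p was at most 0.0698. The single UGT1 row, Ugt1a3, spans first exons of several UGT1A enzymes, which share their later exons, so its value cannot be given to 1 enzyme. It had 19.3, 29.3 and 81.7 FPKM in CKD against 58.1, 81.7 and 94.8 FPKM in NC kidneys (log2 fold change -1.25, SE 0.261, limma adjusted p = 0.000645). Ugt8, which makes galactosylceramide, a myelin lipid, fell by 0.57 on the log2 scale (SE 0.161, limma adjusted p = 0.00612), a call lost under TPM scaling and plain read totals.

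Of the 6 tested sulfotransferases 4 fell. Sult1c2a had 179, 458 and 1047 FPKM in CKD against 937, 1203 and 1939 FPKM in NC kidneys. Only CKD 1 reached the NC range (log2 fold change -1.61, SE 0.376, limma adjusted p = 0.00167). Sult1c2, on the same chromosome 9 stretch, had 10.7, 20.8 and 38.7 FPKM in CKD against 49.8, 77.7 and 104 FPKM in NC kidneys, with no overlap (log2 fold change -1.84, SE 0.316, limma adjusted p = 0.000112). Its row, from 6745700 to 7131245 on the plus strand, encloses the Sult1c2a row on the minus strand, so the reads of these rows may not be separate. The third gene there, Sult1c3, had 0, 0.320 and 1.52 FPKM in CKD against 1.51, 3.64 and 9.87 FPKM in NC kidneys (log2 fold change -1.83, SE 0.289, limma adjusted p = 4.84e-05), in a row tested only because NC is high. The overlap came from CKD 1 and NC 5, which were almost equal. Sult2b1, which sulfates cholesterol, fell by 0.83 on the log2 scale (SE 0.250, limma adjusted p = 0.0101), a call lost under TPM scaling and plain read totals. Sult1b1, which acts on thyroid hormones and small phenols, did not pass the test: it had 19.6, 34.6 and 80.0 FPKM in CKD against 22.04, 71.5 and 107 FPKM in NC kidneys (log2 fold change -0.63, SE 0.444, limma adjusted p = 0.244). Sult4a1, known mainly from brain, did not pass either (log2 fold change 0.72, SE 0.501, limma adjusted p = 0.242).

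The scaling sets the level against which these falls are read. With equal FPKM sums (TPM) the median of all genes moved to 0.37 and with plain read totals to 0.25, and 83.7% and 77.6% of all called genes were then higher, against 48.4% as deposited. The member medians were -0.29 and -0.39 under these scalings. The members that fell numbered 12 and 15, against 22 as deposited, and 2 rose under each. In the exact rank sum test, whose smallest p is 0.0022, Gsta5, Gsta6, Gstk1, Gsto1, Gstt2, Ugt2b35, Ugt2b7 and Ugt8 lost their calls.

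**Figure D3:**
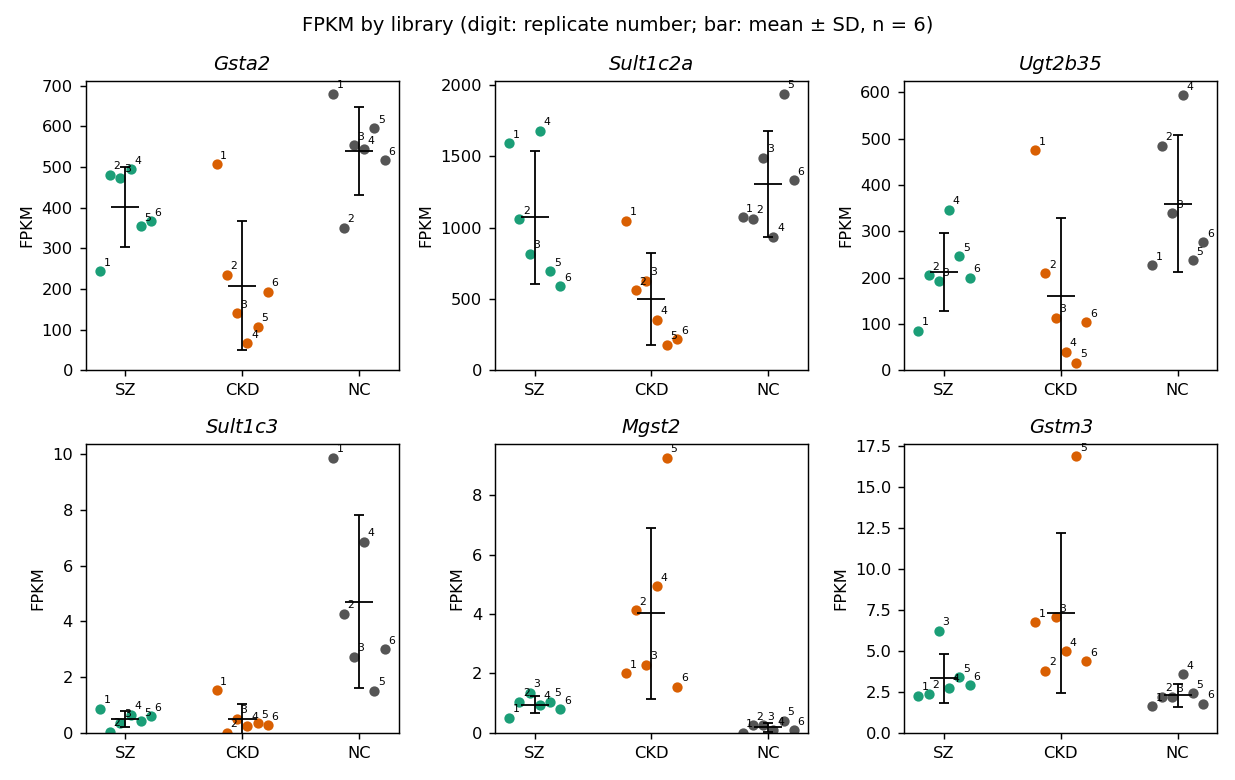
FPKM of Gsta2, Sult1c2a, Ugt2b35, Sult1c3, Mgst2 and Gstm3 in each library (linear axes from 0), with replicate numbers beside the points and mean and SD of 6 libraries per group; bars that would run below 0 are not drawn there. CKD 1 is the highest CKD library in the upper 3 panels and in Sult1c3, and CKD 5 is the highest in Mgst2 and Gstm3.

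SZ against CKD asks how kidneys differed when SZ-A was given with adenine. In SZ kidneys 4 members were higher than in CKD kidneys, Gsta2, Gstt3, Sult1c2 and Sult1c2a, and 2 were lower, Mgst2 and Gstm3; 26 of 32 did not pass the test. These 6 had each been called in CKD against NC with the opposite sign; the comparisons share the CKD libraries, so this is a count and no test. Of all genes tested 11.0% were called, 4.16% higher and 6.82% lower, against 18.8%, 12.5% and 6.25% of the members. The median log2 fold change was 0.21 over the members and 0.01 over all genes, and 23 of 32 members had a value above 0. Ranges did not overlap for 1 member, Mgst2, and for 2.26% of all genes.

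Among the SULTs, Sult1c2a had a lowest, median and highest value of 589, 937 and 1680 FPKM in SZ against 179, 458 and 1047 FPKM in CKD kidneys (log2 fold change 1.25, SE 0.376, limma adjusted p = 0.0403). Sult1c2 had 26.9, 43.4 and 75.9 FPKM in SZ against 10.7, 20.8 and 38.7 FPKM in CKD kidneys (log2 fold change 1.10, SE 0.316, limma adjusted p = 0.0334). The ranges overlapped in both, and since the Sult1c2 row encloses the Sult1c2a row these calls may not be separate. Sult1c3 had 0.0480, 0.510 and 0.861 FPKM in SZ against 0, 0.320 and 1.52 FPKM in CKD kidneys (log2 fold change 0.04, SE 0.289, limma adjusted p = 0.935). Sult2b1 missed the threshold (log2 fold change 0.66, SE 0.250, limma adjusted p = 0.0906), and Sult1b1 and Sult4a1 had log2 fold changes of 0.003 and -0.06 with wide errors (SE 0.444 and 0.501). The mean FPKM of Sult4a1 ran the other way, at 8.74 in SZ and 6.70 in CKD kidneys.

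Among the GSTs, Gsta2 had 244, 420 and 494 FPKM in SZ against 66.4, 166 and 506 FPKM in CKD kidneys (log2 fold change 1.21, SE 0.345, limma adjusted p = 0.0322). Apart from CKD 1, every CKD library was below every SZ library. Gstt3 had 183, 225 and 313 FPKM in SZ against 116, 148 and 238 FPKM in CKD kidneys (log2 fold change 0.61, SE 0.192, limma adjusted p = 0.0483). Gsta1, at 189, 314 and 364 FPKM in SZ against 47.0, 126 and 355 FPKM in CKD kidneys, lay at the threshold (log2 fold change 1.09, SE 0.347, limma adjusted p = 0.0503), and Gsta5 missed it (log2 fold change 1.15, SE 0.407, limma adjusted p = 0.0710). Gsta3 stood at 2.43, 4.89 and 8.26 FPKM in SZ and 3.48, 4.39 and 9.78 FPKM in CKD kidneys, and its log2 fold change was -0.09 (SE 0.229, limma adjusted p = 0.828). Gstm3 was lower in SZ kidneys, at 2.27, 2.83 and 6.24 FPKM against 3.78, 5.87 and 16.9 FPKM in CKD kidneys (log2 fold change -0.84, SE 0.262, limma adjusted p = 0.0460). Its ranges overlapped through SZ 3.

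Mgst2 was lower in every SZ library than in every CKD library, at 0.508, 0.998 and 1.36 FPKM in SZ against 1.56, 3.21 and 9.27 FPKM in CKD kidneys (log2 fold change -1.21, SE 0.251, limma adjusted p = 0.00910). The row was tested only because CKD is high. The call was made under 29 of 30 alternatives, among them the fit with no filter on low values. It was lost in the rank sum test, in which 0 of all 13851 genes were called higher and 0 lower. Mgst3 and Mgst1 did not pass the test (log2 fold changes 0.17 and 0.03), and the sign of Mgst1 turned under TPM scaling and plain read totals. No UGT passed: Ugt1a3 was at 0.68 on the log2 scale (SE 0.261, limma adjusted p = 0.0931), Ugt2b35 at 1.02 (SE 0.572, limma adjusted p = 0.248), Ugt2b7 at 0.71 (SE 0.445, limma adjusted p = 0.30) and Ugt8 at -0.10 (SE 0.161, limma adjusted p = 0.709).

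Single libraries moved these counts. Without CKD 1, 13 members were called, 11 of them higher, against 6. The count was 1 without CKD 4, CKD 5, SZ 2 or SZ 4 and 2 without CKD 3 or SZ 1. Calls over all genes moved as well: 576 were higher and 945 lower with every library, and 1213 and 1585 without CKD 1. Without CKD 3, CKD 4, CKD 5, SZ 1, SZ 2 or SZ 4, 163 to 371 genes were higher and 370 to 742 lower. Without CKD 2, CKD 5 and SZ 3 together 0 members were called higher and 2 lower, and fitting only SZ and CKD gave 1 call, Mgst2. Over all genes the former fit called 674 higher and 804 lower, and the latter 143 higher and 411 lower. Sult1c2 and Sult1c2a were each called under 21 of 31 alternatives, Gsta2 under 20 of 31, Gstt3 under 8 of 31 and Gstm3 under 12 of 30.

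**Figure D4:**
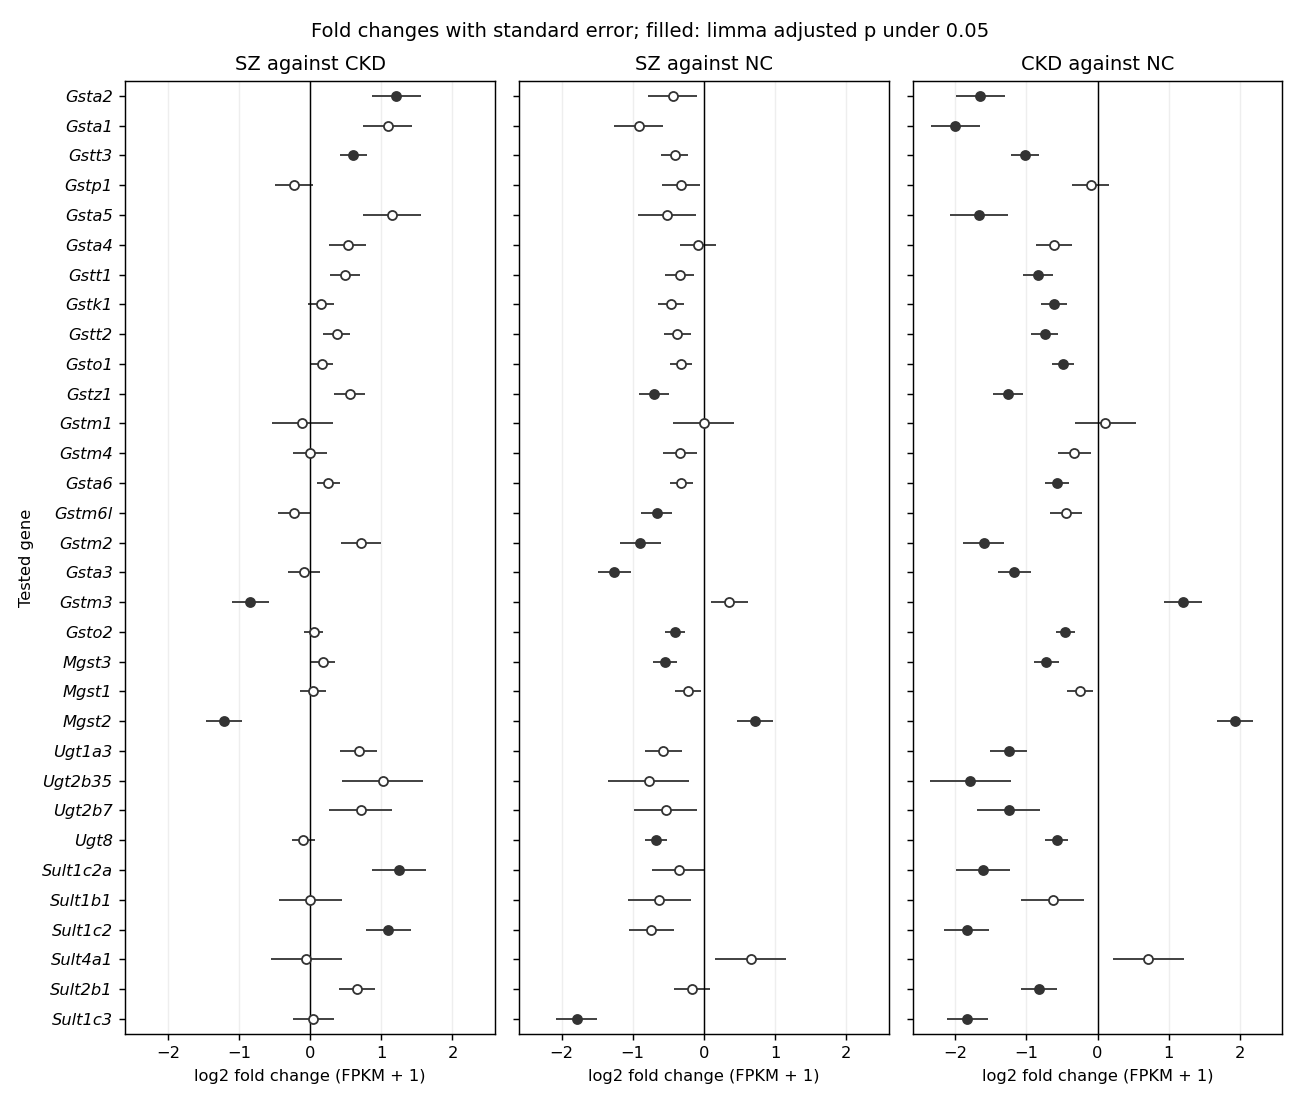
Log2 fold change of FPKM + 1 with its standard error for the 32 tested members in the 3 comparisons, with filled points at a limma adjusted p under 0.05. In the SZ against CKD panel 6 points are filled, and in the CKD against NC panel 24 are, of which Gstm3 and Mgst2 lie above 0.

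SZ against NC asks how far kidneys given adenine with SZ-A stood from untreated ones. Of the 32 members 8 were lower in SZ kidneys, 1 was higher and 23 did not pass the test. Lower were Gsta3, Gstm2, Gstz1, Gstm6l, Gsto2, Mgst3, Sult1c3 and Ugt8, and higher was Mgst2. Of all genes tested 21.1% were called, 12.5% higher and 8.61% lower, against 28.1%, 3.12% and 25% of the members, and the member median was -0.42 against -0.04 over all genes. Ranges did not overlap for 7 members and for 14.6% of all genes. The comparison shares the NC libraries with CKD against NC and the SZ libraries with SZ against CKD.

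Sult1c3, tested only because NC is high, had 0.0480, 0.510 and 0.861 FPKM in SZ against 1.51, 3.64 and 9.87 FPKM in NC kidneys, with no overlap (log2 fold change -1.79, SE 0.289, limma adjusted p = 0.000260). Gsta3 was lower, at 2.43, 4.89 and 8.26 FPKM in SZ against 10.6, 11.7 and 14.4 FPKM in NC kidneys, again with no overlap (log2 fold change -1.26, SE 0.229, limma adjusted p = 0.000753). Gsta1 did not pass the test (log2 fold change -0.92, SE 0.347, limma adjusted p = 0.0683), although its SZ and NC ranges did not overlap. Gstm2 was at -0.89, Gstz1 at -0.70, Ugt8 at -0.67, Gstm6l at -0.67, Mgst3 at -0.55 and Gsto2 at -0.40 on the log2 scale, with limma adjusted p between 0.00601 (Ugt8) and 0.0423 (Gsto2). Mgst2 was higher, at 0.508, 0.998 and 1.36 FPKM in SZ against 0, 0.172 and 0.408 FPKM in NC kidneys (log2 fold change 0.72, SE 0.251, limma adjusted p = 0.0479). The abundant Gsta2, Gstt3, Sult1c2a, Ugt2b35 and Ugt1a3 did not pass, with log2 fold changes of -0.44, -0.41, -0.35, -0.78 and -0.57. The count of 9 fell to 3 under TPM scaling and 4 under plain totals. It was 3 to 5 without NC 1, NC 2, NC 3, NC 4, SZ 5 or SZ 6, each left out alone. Calls over all genes moved with the scaling as well, from 1726 higher and 1193 lower as deposited. Under TPM scaling 3544 were higher and 254 lower, and under plain totals 2861 and 381. Gsta3 and Sult1c3 were called under all of their 31 and 30 alternatives and Ugt8 under 29 of 30. Mgst3 was called under 24 of 31, Gstz1 under 23 of 31, Gstm2 under 19 of 31, Gstm6l under 17 of 31, Mgst2 under 17 of 30 and Gsto2 under 13 of 30, and Mgst2 lost its call without any 1 of the NC libraries and with no filter on low values.

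The mu class genes varied within groups in a way that crossed the treatments. All 6 mu rows lie between positions 195531495 and 195685323 of chromosome 2 (mRatBN7.2). The Gstm6l row, from 195544426 to 195628961, encloses the Gstm2 and Gstm3l rows on the same strand, so the reads of these rows may not be separate. Gstm1 had 4.41, 18.4 and 28.1 FPKM as lowest, median and highest in SZ, 14.9, 18.5 and 21.4 FPKM in CKD, and 3.54, 20.5 and 34.1 FPKM in NC kidneys. The low values were SZ 6 and NC 5, whose next-lowest neighbours were at 17.7 and 11.96 FPKM. In 5 of the 6 mu rows, all but Gstm3, SZ 6 was the lowest SZ library and NC 5 the lowest NC library, against 1 of the 27 other tested members. This pattern was chosen after the values were seen, and among the CKD libraries the lowest one differed between mu rows. Near-identical mu copies may share reads, and whether the rows move separately was not tested.

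**Figure D5:**
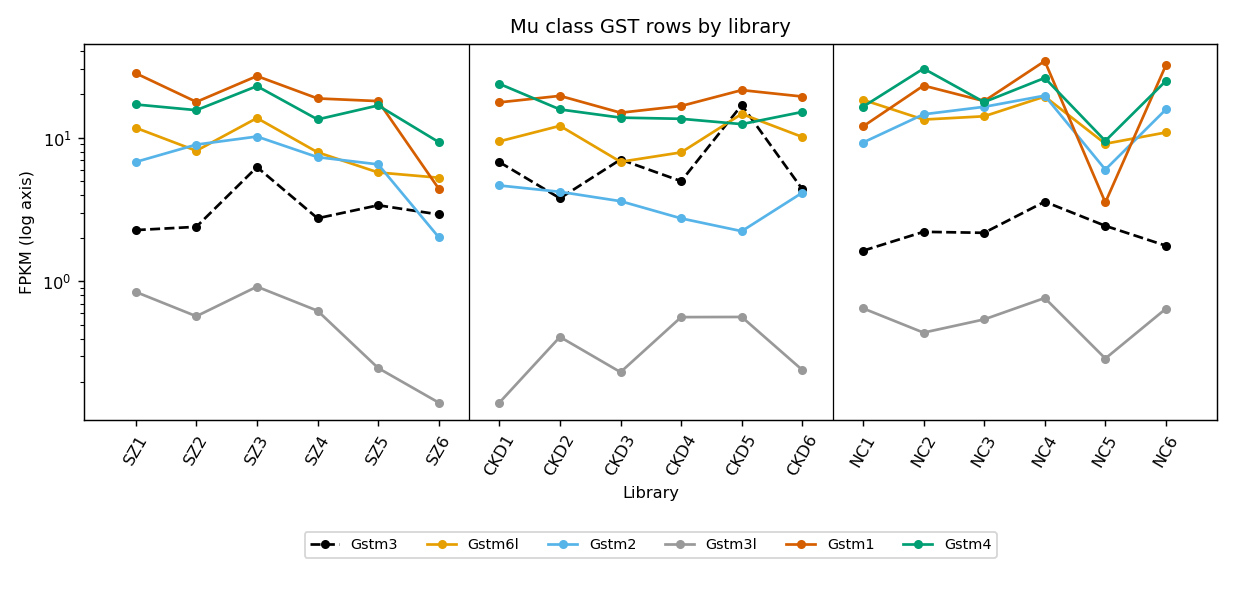
FPKM of the 6 mu class GST rows in each library on a log axis; lines join the values of a row and libraries within a group have no order. Gstm1, Gstm2, Gstm4, Gstm6l and Gstm3l are lowest in SZ 6 and NC 5 within their groups, while Gstm3 (dashed) is not and is highest in CKD 5.

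The genes that feed and follow conjugation, in lists chosen with earlier results of these data known, were compared in the same fit, and the values below are log2 fold changes unless a level is named. In CKD against NC the glutathione supply fell in 4 of 4 tested genes, among them Gclc, the catalytic subunit of glutamate-cysteine ligase (mean 340 FPKM in CKD and 1570 FPKM in NC kidneys, log2 fold change -2.41, SE 0.639, limma adjusted p = 0.00429). Its values were spread widely in every group. The list's cystine importer Slc7a11 was too low to be tested and stood the other way, at 0.738 to 3.49 FPKM in CKD against 0 to 0.0606 FPKM in NC kidneys. The mercapturate path fell in 5 of 6, with the cysteine conjugate N-acetyltransferases Nat8f1 and Nat8 at -2.24 and -1.99 (limma adjusted p = 6.78e-05 and 3.15e-05). PAPS supply fell in 4 of 4, led by the sulfate transporter Slc26a1 at -1.26 (limma adjusted p = 5.37e-05). Of the 4 genes listed under UDP-glucuronate supply 2 fell, Ugdh at -0.81 and the transporter Slc35d1 at -1.37. From the same list 1 rose, Slc35d2 at 0.80, and its part in this supply was not tested. The list medians were -1.22, -1.32, -0.75 and -0.54, against -0.04 over all genes.

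In the same comparison 7 of 13 regulators fell and 0 rose, among them Ppara at -2.08, Hnf4g at -1.51 and Hnf4a at -1.34 (limma adjusted p = 2.08e-05). Nfe2l2, which encodes NRF2, did not pass (63.5 ± 10.1 FPKM in CKD and 60.1 ± 9.18 FPKM in NC kidneys, SD, n = 6 each, log2 fold change 0.08, limma adjusted p = 0.618), nor did its inhibitor Keap1 (log2 fold change 0.03, limma adjusted p = 0.849). Of 5 listed glucuronidase and sulfatase genes 2 rose, the lysosomal beta-glucuronidase Gusb at 0.80 and the sulfatase Galns at 0.64, and 1 fell, Arsa at -0.64. Whether their enzymes act on products of the members was not tested. Other glutathione transferase relatives rose in 2 of 3, Clic1 at 1.23 and Gstcd at 0.42. Of 5 efflux pumps for conjugates 1 fell, Abcg2 at -1.05. Of all genes tested 26.0% fell and 24.4% rose. The share that fell was 53.8% among the regulators. It was 20% among the efflux pumps and among the glucuronidase and sulfatase genes, in both below that of all genes.

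In SZ against CKD 1 of 4 glutathione supply genes was higher (Gsr, glutathione reductase, at 0.53), 2 of 6 of the mercapturate path (Nat8f1 at 1.24 and Nat8 at 1.23), 2 of 4 of UDP-glucuronate supply (Ugdh at 0.65 and Slc35d1 at 0.70) and 1 of 4 of PAPS supply (Slc26a1 at 1.05, limma adjusted p = 0.00598). Of 13 regulators 4 were higher, among them Ppara at 1.22, Hnf4a at 0.84 and Nr1h4 at 0.68. Of 5 efflux pumps 2 were higher, Abcc2 at 1.17 and Abcg2 at 0.61. Over all genes tested 4.16% were higher and 6.82% lower in this comparison. Gusb was lower at -0.46, and 0 of the 3 other glutathione transferase relatives were called. The medians of the 4 supply and mercapturate lists, in this order, were 0.54, 0.54, 0.41 and 0.30, against 0.01 over all genes. In SZ against NC the called genes of all these lists were as follows. Lower were Anpep (1 of 6 of the mercapturate path), Slc35d1 (1 of 4 of UDP-glucuronate supply) and Papss1 and Slc35b3 (2 of 4 of PAPS supply). Arsa (1 of 5 glucuronidase and sulfatase genes), Nr1h4 and Nr1i2 (2 of 13 regulators) and Abcg2 (1 of 5 efflux pumps) were lower too. Higher were Slc35d2 (1 of 4), Gusb (1 of 5), and Clic1 and Gstcd (2 of 3). Over all genes 8.61% were lower and 12.5% higher in SZ against NC.

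Markers of cell types moved with these results. Beside their counts, 26.0% of all genes tested fell and 24.4% rose in CKD against NC. In SZ against CKD 4.16% of all genes were higher and 6.82% lower. Of 14 proximal tubule markers 12 fell in CKD against NC and 7 were higher in SZ against CKD, and their summed level ran from 5970 to 9150 FPKM in SZ, 2210 to 6950 FPKM in CKD and 10700 to 12400 FPKM in NC kidneys. Of 10 macrophage markers 10 rose in CKD against NC and 8 were lower in SZ against CKD, with summed levels of 439 to 972 FPKM in SZ, 1060 to 2250 FPKM in CKD and 115 to 219 FPKM in NC kidneys. Fibroblast markers rose in 6 of 6 in CKD against NC and were lower in 2 of 6 in SZ against CKD, at 195 to 397 FPKM in SZ, 337 to 876 FPKM in CKD and 54.6 to 165 FPKM in NC kidneys. All 5 loop and distal tubule markers fell in CKD against NC and 0 of 5 were called in SZ against CKD. Collecting duct markers fell in 4 of 5 in CKD against NC and were higher in 2 of 5 in SZ against CKD. Podocyte markers fell in 3 of 3 tested and endothelial markers in 2 of 4 in CKD against NC, and none of these was called in SZ against CKD. Of 5 hepatocyte markers 1 was tested, Fgb, a fibrinogen chain, and it rose in CKD against NC. T cell markers rose in 4 of 4 in CKD against NC and were lower in 2 of 4 in SZ against CKD. Their part in the falls of the abundant GST, UGT and SULT members and in the rises of Mgst2 and Gstm3 was not tested. The share of mitochondrial reads, 11.1% to 18.4% in SZ, 5.86% to 16.02% in CKD and 14.7% to 24.1% in NC kidneys, was ordered in the same way, and its part was not tested either.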

How the data were processed

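Per the labels' protocols, RNA was extracted with Trizol and an Illumina TruSeq kit gave the libraries. Reads were aligned with HISAT2 2.0.5 and the build was mRatBN7.2, per the submitters' processing notes. The sources used here do not give how reads were counted, with or without strand, so a gene cannot be told apart from one that overlaps it. The authors deposited 1 table of FPKM values. Reads were recovered from it, since values above 0 times gene length gave whole numbers of reads (100% within 0.01). The size the authors divided by, over the recovered total, averaged 1.04 in SZ, 1.14 in CKD and 0.896 in NC.

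Genes with FPKM of at least 1 in at least 6 of 18 libraries entered a limma 3.58.1 fit (R 4.3.3) of log2(FPKM + 1), 1 fit of 3 group means with an intensity trend, 2-sided, and 18265 genes were set aside. The fit was tested on simulated data. Families were also summed per library. Members and lists were chosen with earlier results of these data known. Members are named by mean level within their family, by a call in SZ against CKD, by the size of the CKD against NC change or by a direction against their family, 15 in all, and the remaining tested members are given briefly.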

Additional observations from a re-analysis of the deposited data

Results flagged for a closer look

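Each tested member was examined in each group for a highest or lowest library far from the other 5, by the gap to the nearest library as a share of the group's range (Dixon's critical value for 6 libraries). Of 96 such groups of values 10 stood out. The critical value is set so that about 1 in 20 stand out by chance when values are normal and independent. Here FPKM values were used untransformed and the rows come from the same libraries, so the count cannot be set against chance. CKD 1 was far above the other CKD libraries in Gsta5 (109 FPKM, the next at 24.5), Gsta3 (9.78, the next at 4.96), Gstm4 (23.7, the next at 15.7) and Sult1c3 (1.52, the next at 0.51). SZ 3 was far above the other SZ libraries in Gstp1 (392 FPKM, the next at 192), Mgst1 (154, the next at 104), Sult4a1 (23.1, the next at 9.27) and Gstm3 (6.24, the next at 3.38). CKD 5 was far above the other CKD libraries in Gstm3 (16.9 FPKM, the next at 7.04), and NC 6 above the other NC libraries in Ugt2b7 (24.1 FPKM, the next at 7.55). Over the 32 tested members CKD 1 was the highest CKD library in 20 and SZ 3 the highest SZ library in 21. The same count was not made over all genes, so whether this is particular to the members was not tested.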

How the results depend on the processing

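No single member that was called changed sign under any alternative. In CKD against NC the members called numbered 24 (2 higher, 22 lower). They were 14 under TPM scaling (12 lower), and 14 were lower in the exact rank sum test. With a mean FPKM of at least 5 required 0 were higher, since Mgst2 and Gstm3 were then not tested. Over all genes 3378 were higher and 3595 lower as deposited. Under TPM scaling 6581 were higher and 1279 lower, and in the exact rank sum test 2923 and 3040. In SZ against CKD the 6 called members (4 higher, 2 lower) became 1 with no filter on low values (0 higher, 1 lower), 1 with only the groups compared (0 higher, 1 lower), 2 without CKD 2, CKD 5 and SZ 3 (0 higher), 10 with a gene length correction (8 higher), and 0 in the exact rank sum test. That test could call no gene here: 0 of all 13851 genes were called higher and 0 lower. Mgst2, whose ranges did not overlap, had a rank sum adjusted p of 0.0958. An unadjusted limma p under 0.05 was found for 13 members (40.6%) and for 29% of all genes tested. Over all genes 576 were higher and 945 lower as deposited. With no filter 338 of 23814 genes were higher and 760 lower, and with the gene length correction 808 and 1162 of 13851. With a mean FPKM of at least 5 required 0 members were lower, since Mgst2 and Gstm3 were then not tested. Over all genes 522 of 8491 were then higher and 593 lower. Under trimmed mean of M-values sizes and under voom on recovered reads 1 member was lower. In SZ against NC the 9 called members (1 higher, 8 lower) became 5 with no filter (0 higher, 5 lower). They were 3 under TPM scaling (2 lower) and 4 under plain library totals (3 lower). With a mean FPKM of at least 5 required 0 were higher and 5 lower, since Mgst2, Sult1c3, Gsto2 and Ugt8 were then not tested. Over all genes 1726 were higher and 1193 lower as deposited. With no filter 1771 of 23814 genes were higher and 1129 lower, and with the higher mean 877 of 8491 and 750. The causes of the other changes in these counts were not tested.

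Leaving out 1 library at a time gave 23 to 25 called members in CKD against NC (2 higher throughout, 21 to 23 lower), 1 to 13 in SZ against CKD (0 to 11 higher, 1 to 2 lower) and 3 to 11 in SZ against NC (0 to 1 higher, 3 to 10 lower). Over all genes these fits called 3130 to 3519 higher and 3242 to 3881 lower in CKD against NC. They called 163 to 1468 higher and 370 to 1590 lower in SZ against CKD. In SZ against NC they called 1451 to 1914 higher and 735 to 1451 lower. With replicate number as a block, 2 members were called higher in SZ against CKD, against 4. The labels do not say that a replicate number marks a pair. Deviations of same-numbered libraries correlated above 0.1 in 4 of 18 pairs (-0.36 to 0.232). Differently numbered pairs were not set beside them, so this cannot tell whether the libraries were paired.

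Family sums as log2 differences moved under TPM scaling to -0.65 (GST), -0.0916 (MGST) and -0.30 (Ugt8 and Ugt3a2) in CKD against NC, and to -0.21 (GST), -0.13 (MGST) and -0.27 (UGT1) in SZ against NC; under plain totals MGST moved to -0.20 in CKD against NC and -0.22 in SZ against NC. As deposited the GST, MGST and other UGT differences in CKD against NC were -1.11, -0.55 and -0.76, and the GST, MGST and UGT1 differences in SZ against NC were -0.52, -0.43 and -0.58. Moves smaller than the spread within groups were seen in SZ against NC for SULT (-0.37, with TPM -0.0633, with plain totals -0.15), UGT2 (-0.78, with TPM -0.47, with plain totals -0.56) and, with plain totals, GST (-0.30). Reads limit Mgst2, Sult1c3 and Gsto2, which lie near 1 FPKM.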
